A study of Mus musculus with 4 samples.

Results

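Zbp1, Ripk1, Ripk3, Mlkl, Casp8, Casp1, Casp4, Gsdmd, Xaf1 and Tnfsf10, genes of programmed cell death, were followed through 4 RNA libraries of cultured lung endothelial cells (ECs). They were chosen by name, with earlier results of these data known, and make up 10 of the 24421 genes of the count table. The cells came from 2 male mice of strain C57/BL6, aged 2 wk and taken from independent litters, which carried an inducible ADAR1 knockout (i-KO) with a floxed Adar gene. From each mouse, one culture was treated with tamoxifen (TM) to delete Adar and one was left non-treated (CON), named EC1 for one mouse and EC2 for the other, which gave libraries EC1 CON, EC1 TM and the EC2 pair, n = 2 per group. CON cells carried the same floxed alleles as TM cells and lacked only the drug, so that the loss of ADAR1 and any effect of tamoxifen itself cannot be told apart. The labels call the knockout EC-specific, and the promoter of its inducible Cre is not given in the sources used here. Fewer cells that express a gene and less RNA per cell cannot be told apart in such bulk libraries.

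ZBP1 is a sensor that binds left-handed double-stranded nucleic acid, and ADAR1 holds the same kind of binding domain. Through a short motif (RHIM) that it shares with the kinases RIPK1 and RIPK3, ZBP1 can recruit RIPK3, which phosphorylates MLKL, the protein that breaks the plasma membrane in necroptosis. Caspase-8 cuts RIPK1 and RIPK3 and starts apoptosis below death receptors, one of whose ligands is TRAIL, the product of Tnfsf10. In pyroptosis, caspase-1 or caspase-4 (the mouse caspase-11) cuts gasdermin D, the product of Gsdmd, whose fragment forms pores, while XAF1 is an antagonist of the caspase inhibitor XIAP. Several of these genes are known to be inducible by interferon.

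The clearest differences were in Zbp1 and Xaf1, which rose in TM, and in the read depth over Mlkl, Tnfsf10, Gsdmd and Casp4, which was at least 2 times as high in TM as in CON in both mice. This depth is a median over the exonic sites that each library listed, and 4.59% of 9788 genes were as much higher. For Tnfsf10, Gsdmd and Casp4 each CON median rests on 2 sites. The primary measure, from sites that both libraries of a mouse list, existed in both mice for 2 members, and 0 reached 2-fold. The depth over Ripk3, Casp8 and Ripk1 was 1.30 to 1.87 times as high. Casp1 was near the limit of detection. Few sites outside Mlkl met the criteria for editing.

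Gene counts were small. Where 4 values of a gene are given in a row, they stand for CON and TM of mouse EC1 and then CON and TM of mouse EC2. The libraries held 1095488 to 1778732 counts on genes, only 0.823% to 0.858% of all rows of the count tables, while 92.8% to 93.9% were assigned to no gene. The kit keeps the strand of the RNA and the counting used default settings, and the strand of the counted reads was not tested. Genes that overlap an opposite-strand exon, 24.1% of those matched to GENCODE vM21, held 68.6% to 73.9% of the counts on genes. A count may thus hold reads of either strand, and all results from counts below carry this limit. Where a gene was at 0, up to 3 counts could have been missed, which is 1.69 to 2.74 CPM, the count scaled to a common library size. Read depth, the number of reads at the sites of the deposited editing table, does not pass through the counting and served as a further readout. It exists only where a library listed a site, and a site is listed only where at least 1 read carried the altered base, so deeper transcripts list more sites. Adar itself had counts of 9 and 16 in CON and of 47 and 71 in TM. In its exons 12 to 14, inside the part that the floxed allele deletes, the median depth per 100000000 reads was 109 and 118 in the CON libraries, against no listed site in EC1 TM and 31.6 in EC2 TM. In its other exons the depth was higher in TM, at 485 and 458 against 110 and 122.

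The endothelial label fitted the libraries. All 12 endothelial markers had exonic sites in every library, and their summed level was 1309 to 1414 CPM in CON and 1341 to 1419 CPM in TM. Their median depth was lower in TM, at 652 to 782 reads per 100000000 against 1094 to 1294 in CON, and Cldn5, a tight junction gene, fell (log2 fold change -1.52, SE 0.41, edgeR adjusted p = 0.0176, higher in CON in both mice), a call lost under DESeq2 (adjusted p = 0.169). The 10 leukocyte markers summed to 54.7 to 67.6 CPM in CON and 54.0 to 76.0 CPM in TM, nearly all of it from Csf1r and Cd68, with 5 to 8 of the 10 at a count of 0. Ptprc, which marks all leukocytes, had at most 1 count, and Cd3e and Lyz2 had 0 in every library. By depth, 3 of the 10 had an exonic site in any library, Cd68 at medians of 27.5 to 48 reads in 3 libraries, Lyz2 at 14 reads in EC1 CON, 41 in EC2 CON and 17.5 in EC2 TM, and Csf1r at 7 reads in EC2 TM. Fibroblast and smooth muscle markers summed to 570 to 581 CPM in CON and 493 to 583 CPM in TM, with 0 to 3 of 10 at 0, most of it from Tagln, of which 1349 exonic bases overlap exons on the opposite strand. Their median depth was lower in TM, at 18.2 against 52.6 reads per 100000000 in EC1 and 24.1 against 54.3 in EC2, and Col1a1 and Dcn were at least 2 times lower by depth in both mice. The part of these shifts in the results on the 10 genes was not tested. The 6 epithelial markers summed to at most 8.53 CPM, with 2 to 4 at 0.

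**Figure D1:**
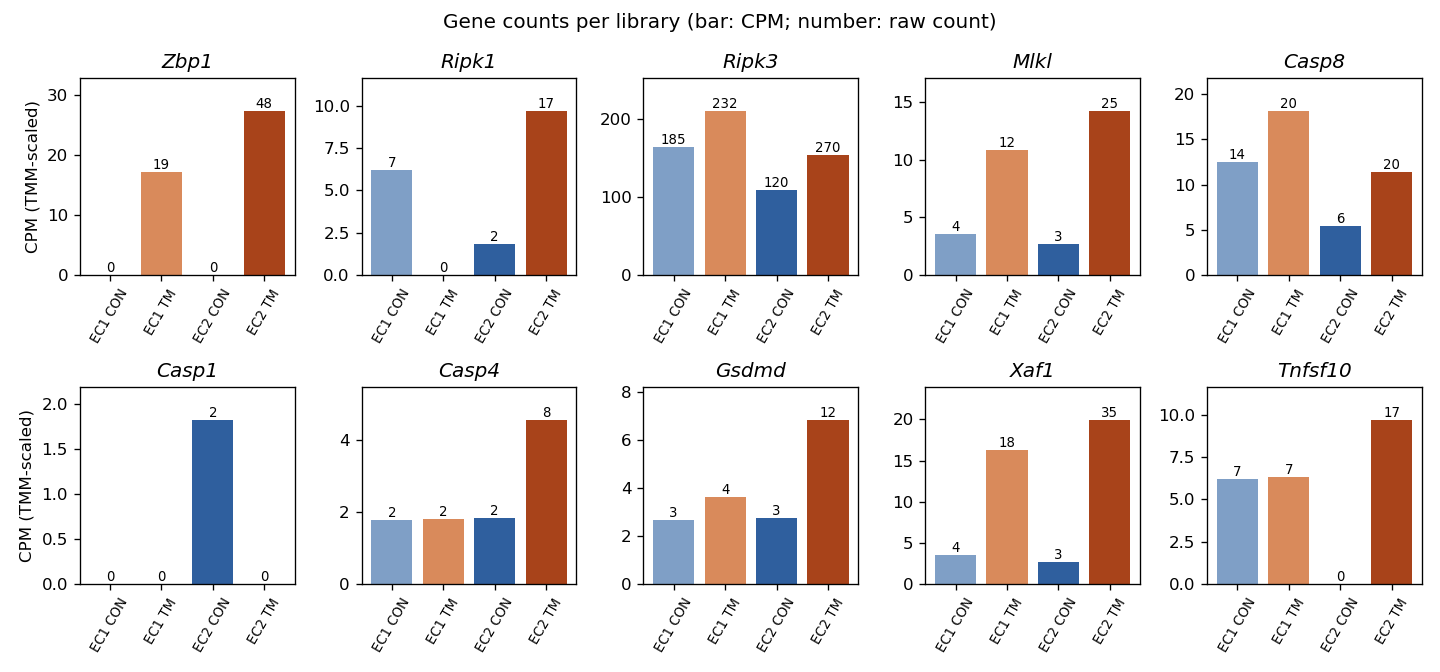
Counts of the 10 genes in each library. Bars give CPM after TMM scaling on a linear axis that starts at 0, with its own range for each gene, and the number on each bar is the raw count. Zbp1 was at 0 in both CON libraries, and Ripk3 was the only one of the 10 with more than 100 counts in every library.

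Zbp1, the sensor, was counted 0 times in EC1 CON and EC2 CON, 19 times in EC1 TM and 48 times in EC2 TM. Both TM libraries lay above both CON libraries. Scaled by edgeR's TMM method, this was 22.2 ± 7.15 CPM in TM (SD, n = 2) against 0 in CON, at least 8.23-fold higher with 3 counts allowed per CON library. The fitted log2 fold change, which for a gene at 0 depends on the tool's prior count, was 7.85 (SE 1.21, Benjamini-Hochberg adjusted p = 3.44e-05 by the quasi-likelihood test of edgeR). The site table repeated this contrast without the counting. Zbp1, at 173206612 to 173218923 of chromosome 2 in GRCm38 on the minus strand, had 99 exonic sites in the table. EC1 TM listed 43 of them at 546 to 1887 reads (median 1023) and EC2 TM listed 65 at 427 to 3519 reads (median 1526). Neither CON library listed a single exonic site. As a description, 9 of the 4046 genes with 10 or more exonic sites in both TM libraries, or 0.222%, had none in CON. The other 8 were Cxcl10, Gbp5, H2-Q6, Ifit1bl1, Oas2, Oas3, Phf11b and Trim30d. The rule was made from the pattern of Zbp1 after it had been seen, so the place of Zbp1 among them was given and the share supports nothing about it. Introns of Zbp1 also carried reads in TM, with medians of 49 and 67 at 17 and 31 sites, against 1 read at 1 site in EC1 CON and no site in EC2 CON. By distance over the log2 CPM of the 4 libraries, the 5 tested genes closest to Zbp1 were Tenm4 at a distance of 0.69, Mthfd2 at 0.75, Gm4951 at 0.80, Mnda at 0.83 and Cd274 at 0.83. Their CON counts were 0 or 1 and their TM counts 13 to 39.

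Of the 10 genes, 5 passed edgeR's filter on low counts and could be tested in counts, Zbp1, Xaf1, Mlkl, Casp8 and Ripk3, and 2 of the 5 were called. Over all 7899 genes tested, 7.75% were called, 4.39% higher and 3.35% lower in TM. A gene that is low in CON can pass that filter through its TM libraries alone, so the count of called members is a description. The exact permutation test of a single gene cannot go below p = 0.333 with 2 libraries against 2, so calls rest on the fit across all genes.

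Xaf1, which codes for the antagonist of XIAP, went from 4 counts in CON to 18 in TM in mouse EC1 and from 3 to 35 in mouse EC2. Both TM libraries exceeded both CON libraries, with 18.1 ± 2.56 CPM in TM and 3.15 ± 0.58 CPM in CON (SD, n = 2). Its log2 fold change was 2.50 (SE 0.65, adjusted p = 0.0132, edgeR). The call rested on few CON counts, was lost under DESeq2 (adjusted p = 0.195), and was lost when EC1 CON (adjusted p = 0.0618), EC2 CON (0.101) or EC2 TM (0.283) was left out in edgeR. The depth difference was larger. Exonic sites of Xaf1 had a median of 82 reads in CON (3 listed sites) against 1171.5 in TM (32 sites) in mouse EC1, and of 159 (5 sites) against 2509 (22 sites) in mouse EC2. Scaled to the reads of each library, the depth was 14.4 times as high in TM in mouse EC1 and 10.9 times in EC2, above 99.1% of genes in both mice. Introns of Xaf1 followed, with medians of 30 and 14 reads in CON and 119 and 203 in TM.

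**Figure D2:**
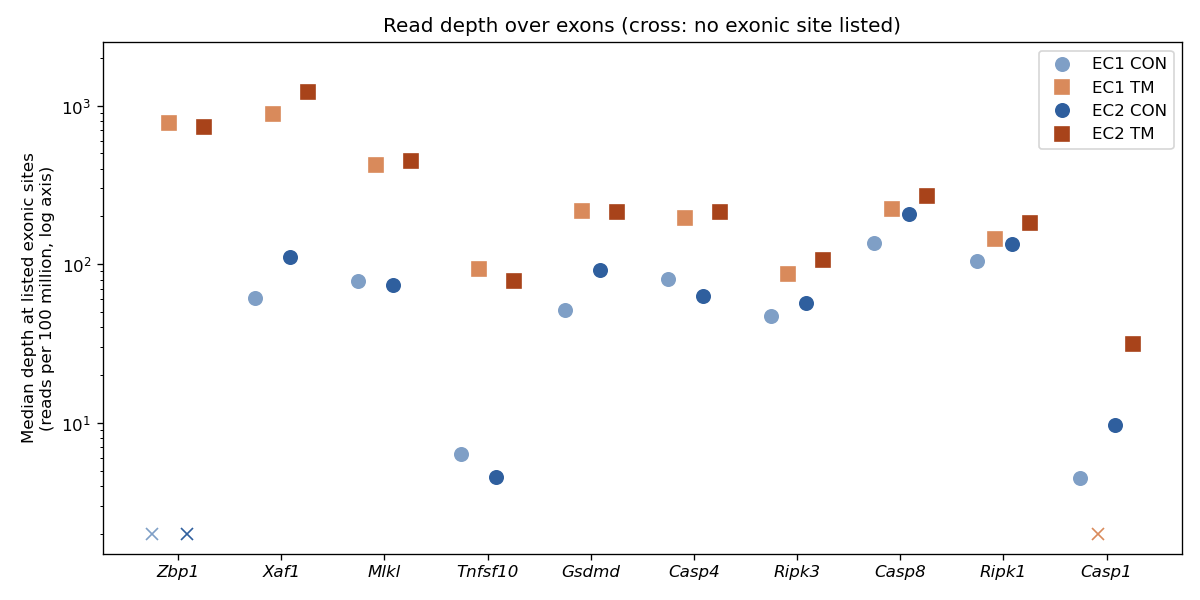
Median read depth at the exonic sites that each library listed, in reads per 100000000 of the library total, on a log axis. Circles are CON and squares TM, light for mouse EC1 and dark for EC2, and a cross marks a library with no exonic site of that gene. In each of the 8 genes that all 4 libraries list, from Xaf1 to Ripk1, both squares lie above both circles, as in 25.9% of 9788 genes. Circles of Tnfsf10, Gsdmd and Casp4 rest on 2 sites each, and that of Ripk3 in EC1 on 1.

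Mlkl, the executioner of necroptosis, had 4 counts in CON and 12 in TM in mouse EC1, and 3 and 25 in mouse EC2. Both TM libraries were higher, with 12.5 ± 2.38 CPM against 3.15 ± 0.58 CPM (SD, n = 2), but the difference did not pass the threshold (log2 fold change 1.98, SE 0.70, adjusted p = 0.0817, edgeR). As a sum over the libraries of each group this was a ratio of 4.10, with an exact interval of 1.80 to 10.9 at 95% that covers counting error only. At the exonic sites the median was 104 reads in CON (3 sites) against 558.5 in TM (14 sites) in mouse EC1, and 106 (9 sites) against 921.5 (28 sites) in mouse EC2. The site ranges of CON and TM did not touch, since the deepest CON site had 150 reads in EC1 and 197 in EC2, and the shallowest TM site 329 and 585. The scaled depth was 5.42 and 6.02 times as high in TM, above 97.8% and 98.4% of genes. Introns moved with it, at medians of 4 and 4.5 reads in CON and 19 and 21 in TM, and so did the stretch downstream of the annotated end, at 21 and 29 reads against 157 and 280.

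Ripk3, whose kinase acts between ZBP1 and MLKL, had by far the highest counts among the 10 genes, with 185 in CON against 232 in TM in mouse EC1 and 120 against 270 in mouse EC2. Each TM library was above the CON library of its mouse, while the groups overlapped in CPM, since EC2 TM (154 CPM) lay below EC1 CON (165 CPM). The log2 fold change was 0.40 (SE 0.31, adjusted p = 0.518, edgeR). Its exonic depth of 63, 113.5, 82 and 221 reads, at 1, 4, 3 and 11 sites, was 1.82 and 1.87 times as high in TM after scaling. Per base, Ripk3 was a lowly read gene. In both CON libraries its scaled depth of 47.3 and 57.1 was under that of Casp8, Ripk1, Casp4, Mlkl, Xaf1 and Gsdmd, although its counts exceeded theirs. The counts of Ripk3 were 10.8% to 25.9% of the read pairs that its exonic depth and length imply, above 97.1% to 98.1% of genes. For the median gene with 3 or more sites and no overlapping exon on the other strand this share was 0.215% to 0.306%, and for Zbp1, Xaf1, Mlkl, Gsdmd, Casp4 and Casp8 it ran from 0.0422% to 0.537%. Single low counts of other members also gave high shares, at 3.16% for Tnfsf10 in EC1 CON (7 counts) and 1.93% for Casp1 in EC2 CON (2 counts), above 91.7% and 91.2% of genes. No exon of another gene overlaps Ripk3 on the opposite strand in GENCODE vM21. The origin of the reads counted on Ripk3 was not tested.

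**Figure D3:**
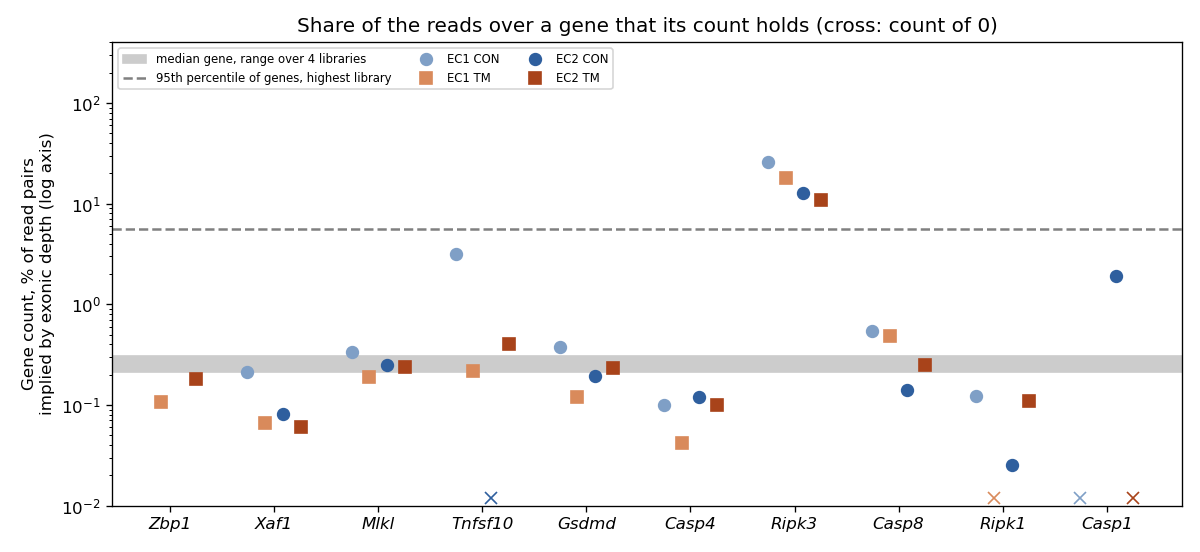
Gene count as a percentage of the read pairs implied by exonic depth, on a log axis, for each gene and library, with circles for CON, squares for TM and crosses for a count of 0. The grey band is the median gene over the 4 libraries (0.215% to 0.306%), and Ripk3 lies at 10.8% to 25.9%, above the dashed 95th percentile.

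Ripk1, the kinase that links death receptors to both apoptosis and necroptosis, went from 7 counts in CON to 0 in TM in mouse EC1 but from 2 to 17 in mouse EC2. The mice moved in opposite directions, the gene did not pass the filter on low counts, and 241 of its exonic bases overlap an exon of Serpinb6a on the opposite strand. Its exonic depth was steadier. Medians were 138.5, 189, 192.5 and 377.5 reads at 16, 24, 22 and 32 sites, and the scaled depth was 1.38 times as high in TM in EC1 and 1.36 times in EC2, above 73.9% and 78.6% of genes. Casp8, the protease that restrains necroptosis, had 14, 20, 6 and 20 counts. The log2 fold change of 0.68 (SE 0.59, adjusted p = 0.576, edgeR) did not pass, and the groups overlapped in CPM. Its exonic depth of 182, 292, 297 and 557.5 reads was 1.62 and 1.30 times as high in TM. Casp8 and Ripk1 had the highest scaled depth of the 10 genes in CON, 137 and 104 in EC1 and 207 and 134 in EC2.

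Tnfsf10, the ligand TRAIL, had 7 counts in both EC1 libraries, 0 in EC2 CON and 17 in EC2 TM, and was too low to be tested. The summed ratio was 2.66 (exact 95% interval 1.11 to 7.31). Depth separated the groups far more. Exonic medians were 8.5 reads in EC1 CON and 6.5 in EC2 CON, each from 2 sites, and 122.5 in EC1 TM and 162 in EC2 TM, from 18 and 33 sites. No CON site had more than 10 reads and no TM site fewer than 75. The scaled depth was 14.6 and 17.3 times as high in TM, above 99.1% and 99.5% of genes, while in absolute terms Tnfsf10 in TM, at 92.9 and 78.1 reads per 100000000, stayed under Casp8 and Ripk1.

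Of the pyroptosis genes, none passed the filter for the test in counts. Gsdmd, the pore former, had 3 counts in CON and 4 in TM in mouse EC1, and 3 and 12 in mouse EC2, a ratio of 2.07 whose exact 95% interval of 0.769 to 6.45 includes no difference. Its exonic depth was 68.5, 285, 131.5 and 442 reads, from 2, 13, 2 and 21 sites. After scaling, TM was 4.20 times as high in EC1 and 2.33 times in EC2. Introns of Gsdmd held a median of 84.5 and 119.5 reads in TM, against a median of 1 at 3 sites in EC1 CON and no listed site in EC2 CON. The EC1 CON sites ranged from 1 read, in a simple repeat, to 25 reads, and those of EC1 TM from 25 to 106. The EC1 CON median is thus no measure of the size of an intronic difference. Casp4, which senses lipopolysaccharide inside the cell, had 2, 2, 2 and 8 counts (ratio 1.94, exact 95% interval 0.559 to 8.47). Its exonic depth of 108, 258, 91 and 441 reads, from 2, 9, 2 and 11 sites, was 2.41 and 3.36 times as high in TM. Casp1, the inflammasome protease, had 2 counts in EC2 CON and 0 elsewhere, and 1 exonic site at most per library, of 6 reads in EC1 CON, 14 in EC2 CON and 65 reads in EC2 TM. This level was under what these counts can compare.

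**Figure D4:**
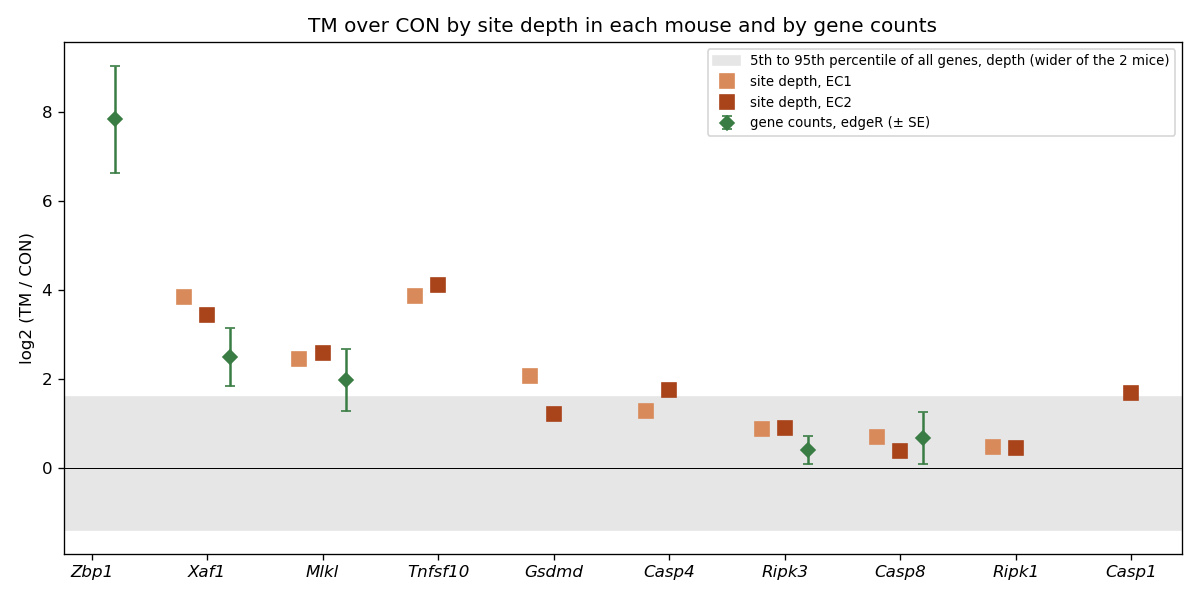
Log2 ratio of TM over CON for each gene. Squares are the scaled median exonic depth in mouse EC1 (light) and EC2 (dark), diamonds the edgeR log2 fold change of the counts with its SE for the 5 genes tested, and the grey band holds the 5th to 95th percentile of all genes by depth. Xaf1, Mlkl and Tnfsf10 lie above the band in both mice, and Ripk3, Casp8 and Ripk1 lie inside it.

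By median depth over listed exonic sites, 8 of the 10 genes could be compared in both mice, and 5 of the 8 (Xaf1, Tnfsf10, Mlkl, Gsdmd and Casp4) were at least 2 times as high in TM in both. Over all 9788 genes with such a ratio, 4.59% were. All 8 had both TM libraries above both CON libraries, as had 25.9% of all genes, and the median gene had a log2 ratio of 0.03 in EC1 and -0.06 in EC2. The members were chosen with earlier results of these data known, so their numbers beside these shares are a description. The primary measure, a ratio formed only from exonic sites that both libraries of a mouse list, existed in both mice only for Ripk1 (1.75 and 1.58 times as high in TM) and Casp8 (1.38 and 1.43 times), so that 0 of 2 reached a 2-fold difference, against 4.63% of 4211 genes. Where it existed in a single mouse it rested on 1 or 2 shared sites, and was 12.2 for Xaf1, 5.20 for Mlkl and 1.53 for Ripk3 in EC2 and 15.3 for Tnfsf10 in EC1, against 10.9, 6.02, 1.87 and 14.6 by the median of listed sites. Many CON medians rest on 1 to 3 listed sites, and where at least 3 were required in every library, a limit set after the values were seen, 4 of the 10 genes remained and Xaf1 and Mlkl were at least 2 times as high. With 2 mice an exact sign permutation cannot go below p = 0.5, so the depth ratios carry no test.

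Depth per base allows only a rough ranking of the genes within a library. Medians in EC1 CON rest on 10 sites for Casp8, 16 for Ripk1 and 1 to 3 for each other listed gene. In EC1 CON the order was Casp8 (137 reads per 100000000), Ripk1 (104), Casp4 (81.2), Mlkl (78.1), Xaf1 (61.6), Gsdmd (51.5), Ripk3 (47.3), Tnfsf10 (6.39) and Casp1 (4.51), with Zbp1 not listed. In EC1 TM it was Xaf1 (889), Zbp1 (776), Mlkl (424), Casp8 (222), Gsdmd (216), Casp4 (196), Ripk1 (143), Tnfsf10 (92.9) and Ripk3 (86.1). Mouse EC2 gave the same first 3 genes in TM, Xaf1 (1210), Zbp1 (736) and Mlkl (444), and the same first pair in CON. The middle of the CON order, from Casp4 to Gsdmd, changed between the mice, as Xaf1 and Gsdmd stood above Mlkl and Casp4 in EC2 CON, and these neighbours were not separated beyond the spread between mice.

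**Figure D5:**
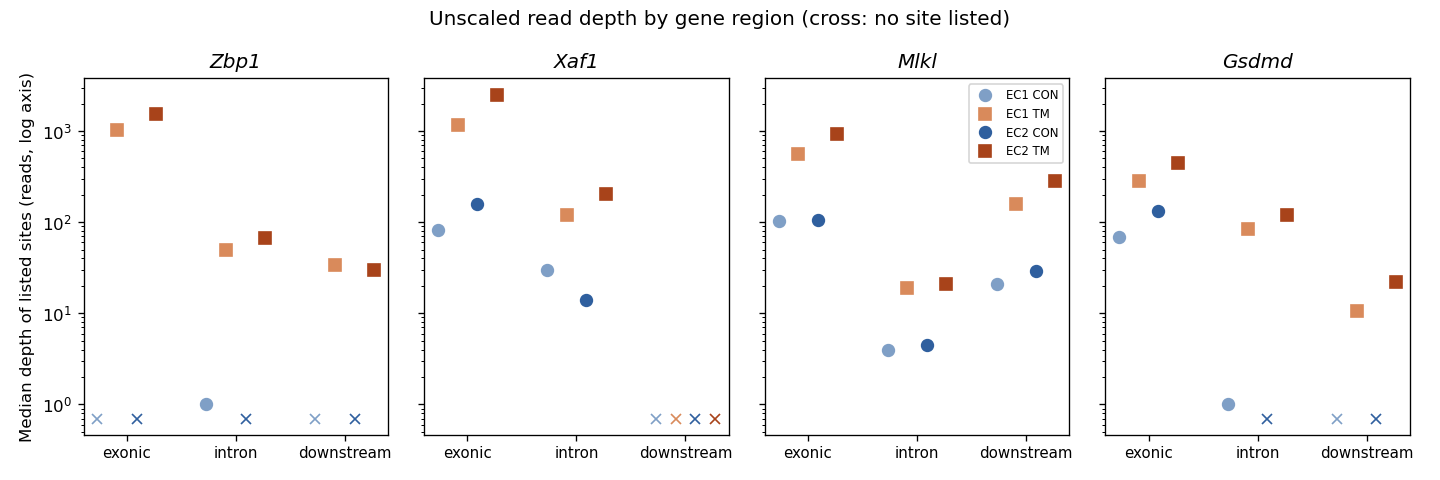
Median depth of listed sites, in reads on a log axis and not scaled to the library, by gene region for Zbp1, Xaf1, Mlkl and Gsdmd, with circles for CON, squares for TM and crosses where no site was listed. TM medians exceeded CON medians in exons and introns wherever both libraries of a mouse listed sites. That of Gsdmd introns in EC1 CON rests on 3 sites of 1 to 25 reads.

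Of 48 further cell-death genes in 3 lists, 47 were in the count table (Gsdme was not analysed here), 21 could be tested and 2 were called, where 7.75% of all genes tested were. Among death receptors and their complexes 0 of 6 tested genes were called in edgeR or in DESeq2 and 0 had an unadjusted p under 0.05, and the best-counted were Cflar (57 counts in CON and 94 in TM in mouse EC1, 71 and 139 in mouse EC2, log2 fold change 0.51, adjusted p = 0.418) and Tradd (20, 34, 16 and 26 counts). Among inflammasome genes 1 of 4 was called, Aim2, a sensor of cytosolic DNA, with 2, 45, 2 and 71 counts. Its log2 fold change was 4.42 (SE 0.60, edgeR adjusted p = 4.87e-06, higher in both mice), whereas its exonic depth of 13, 6, 20 and 60 reads, at 2 to 6 sites, was lower in EC1 TM and higher in EC2 TM. Pycard, the inflammasome adaptor, had 368, 412, 282 and 376 counts (log2 fold change 0.00, SE 0.30), but 485 of its exonic bases overlap an exon of Gm45205 on the opposite strand, and its depth was only 16 to 19.5 reads at 1 or 2 sites, with none listed in EC2 CON. Nek7 had 14, 26, 25 and 42 counts, and 118 of its exonic bases overlap an exon of Gm28501 in the same way. Among genes of mitochondrial apoptosis 1 of 11 was called, Apaf1, the core of the apoptosome, which fell (73, 31, 107 and 50 counts, log2 fold change -1.52, SE 0.36, adjusted p = 0.00554). Its exonic depth differed little, with log2 ratios of -0.15 and -0.10. Mcl1 (152, 179, 182 and 285 counts) and Bcl2l1 (119, 84, 137 and 203) did not pass. The median log2 fold change over the 21 genes was -0.09, against 0.00 over all genes tested. By depth 35 of the 48 could be compared, 3 were at least 2 times as high in TM in both mice and 0 were at least 2 times lower. Of all 9788 genes compared, 449 (4.59%) were as much higher and 341 as much lower. In EC1 CON and EC2 CON, Tnfaip3 rested on 1 and 2 sites, Birc3 on 3 and 2, and Casp12 on 8 and 1. Tnfaip3, the deubiquitinase A20, had log2 ratios of 3.07 and 2.46, and Birc3 of 1.15 and 1.16. Exonic depth of Casp12 was 67 reads in CON and 150.5 in TM in mouse EC1, and 81 and 332 in mouse EC2.

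Editing by ADAR1 turns adenosine into inosine, which is read as guanosine. The site table held 867 sites in the 10 genes, of which 13 passed in at least 1 library, with a depth of 5 reads or more, 3 or more of them altered, and an editing rate from 0.05 to 0.95. Of the 13 sites, 7 lay in Mlkl, 2 each in Zbp1 and Ripk3 and 1 each in Casp4 and Tnfsf10, while Ripk1, Casp8, Casp1, Gsdmd and Xaf1 had none. As a share of sites this was 1.5%, against 2.01% over the whole table. The number passing was 1 in EC1 CON and 2 in EC2 CON, but 5 in EC1 TM and 8 in EC2 TM, where Adar was deleted. Over the whole table it was 11979, 10641, 9492 and 12232 in the same order. Whether ADAR1 edited the passing sites was not tested. In Mlkl, 91 of 160 sites (56.9%) lay in SINEs, the short interspersed elements that ADAR1 is known to edit, against 13.9% over the whole table. All 7 of its passing sites lay in B1 or B2 elements downstream of the gene or in an intron. Mlkl also listed more sites in TM, 70 in EC1 and 98 in EC2, than in CON, 10 and 32. The part of repeats or of depth in its number of passing sites was not tested.

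A rate at least 0.05 higher in CON than in TM was found at 1 of 1 member sites that met the minima in EC1 CON and at 1 of 2 in EC2, against 42.7% and 38.4% of all such sites in the table. In the reverse direction it was found at 4 of 16 in EC1 and 5 of 25 in EC2, against 31.1% and 27.8%. No member site met either criterion in both mice, and 0 of the 2 sites in EC1 and the 9 in EC2 that could be tested passed Fisher's exact test on reads after adjustment, 1 of them with an unadjusted p under 0.05. Of the 9 sites higher in TM, 8 were not listed at 5 or more reads in the CON library of that mouse, where the recorded rate of 0 is a placeholder and not a measured rate. The pair of sites higher in CON were both in Mlkl. In an intronic B1_Mur3 element at position 111321989 of chromosome 8 in mm10, 4 of 5 reads were altered in EC1 CON (0.800), 6 of 16 in EC1 TM (0.375), 1 of 2 in EC2 CON and 7 of 24 in EC2 TM (0.292), with p = 0.149 in EC1 by Fisher's exact test on reads, two-sided (a site chosen after its values were seen). In a downstream B2_Mm2 element at 111311618, 1 of 21 reads was altered in CON and 1 of 179 in TM in mouse EC1, and 3 of 29 (0.103) against 3 of 321 (0.00935) in mouse EC2, with p = 0.00867 by the same exact test and 0.514 after adjustment. Rates at both sites were lower in TM in both mice, on few CON reads. A site is listed only with at least 1 altered read, so a shallow library cannot record a low rate. The rates from 1 of 21 reads in EC1 CON and 1 of 2 in EC2 CON were the lowest that could be listed. The direction in these mice therefore cannot show a difference in editing. A further intronic site in a B1_Mur4 element of Mlkl at 111326481 had 1 altered read of 12 in EC2 CON and 5 of 62 in EC2 TM, rates of 0.0833 and 0.0806.

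The only passing site in an exon was in Ripk3, at position 55787892 of chromosome 14 (mm10, gene on the minus strand), in coding exon 3 of 10 of the transcript Ripk3-201. It is shown with its surroundings because it is the deepest site that passed in both groups, with the altered base in capitals, in the direction of the transcript, from GRCm38 chr14:55787878-55787907 (minus strand, transcript sequence of GENCODE vM21).
Ripk3: tacctacacagcttgAaccctccgctcctg
Of the reads, 41 of 82 were altered in EC2 CON (0.500) and 104 of 181 in EC2 TM (0.575), p = 0.286 by Fisher's exact test on reads. The rate was thus no lower after Adar deletion, and the site was listed in both libraries of mouse EC2 and in neither of EC1. Whether the base differs in the DNA of that mouse was not tested.

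Promoters, taken as 250 bases before to 50 after the start site in RefSeq (GRCm38.p6), were read for the motifs that interferon signalling uses. The table had 10 such windows for 8 of the 10 genes, without Zbp1 and Gsdmd. The core of the interferon-stimulated response element (GAAA, any 2 bases, GAAA, on either strand) was present in 3.44% of 32851 promoters and in 1 of the 10 windows, that of the second start site of Ripk1. The GAS element (TTC, any 3 bases, GAA) was in 8.30% of promoters and also only in that window, where 1 of its matches overlaps the first motif. After the sequences had been seen, 2 more motifs were searched, so their shares over all promoters support nothing about the members. A core shortened by its last base (GAAA, any 2 bases, GAA) was in 8.56% of promoters and in the windows of Ripk1 and of Ripk3, there from 15 to 23 bases after the start site. A core with a spacer of 1 base was in 3.17% of promoters and in the windows of Xaf1 and Casp8. The Casp8 window, chr1:58802252-58802551, lies inside the gene, which starts at 58795374 in GENCODE vM21. That upstream start had no window, although a 5 prime UTR site near it, at 58795460, had 87 reads in EC1 CON. One match each of Ripk1, Xaf1 and Casp8 is shown, as Xaf1 had one of the highest depth ratios of the 10 genes and Ripk1 and Casp8 the lowest, with the motif in capitals.
Ripk1, chr13:34002859-34002888, plus strand, motif from -5 to 5: aacgttcccgGAAATCGAAAagcgcggaac
Xaf1, chr11:72301629-72301658, plus strand, motif from 11 to 19: tgtgtgcaaaGAAACGAAActccacagaag
Casp8, chr1:58802383-58802412, plus strand, motif from -109 to -101: tgcgaaagcaGAAACGAAActgggagacca
Mlkl, Tnfsf10, Casp4 and Casp1 held none of these motifs in their windows. The part of the motifs in the differences between TM and CON was not tested.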

How the data were processed

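The authors used Trimmomatic 0.38 for trimming, STAR 2.6.1a for alignment to mm10 (GRCm38) and HTSeq 0.11.2 at default settings for counting, and deposited raw counts per gene. They called A-to-G changes (T-to-C on minus-strand genes) with BCFtools mpileup and deposited counts of reads with each base and, as the editing rate, the altered fraction. A 0 at a site that a library leaves out is a placeholder and gives no depth. The columns of that table were matched to libraries through the study's supplementary site list. The members and the gene lists were chosen with earlier results of these data known.

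The quasi-likelihood test of edgeR 4.0.16 in R 4.3.3 compared TM with CON over all 4 libraries, after filterByExpr and TMM scaling, with condition as the only term and a Benjamini-Hochberg threshold of 0.05. Standard errors were the fold change divided by the square root of F. Alternatives were DESeq2 1.42.0, RLE size factors, the mouse as a replicate block, other filters on low counts and each library left out. Summary rows (reads on no gene, 92.8% to 93.9%, not unique or ambiguous) stayed out of library sizes. The replicate number marks the mouse and so pairs the libraries. CON and TM deviations from the group means of a mouse correlated with r = 0.163 over 7899 genes. Alone, this correlation does not show the pairing.

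Depth was reference plus altered reads at exon and UTR sites, divided by the total over all rows of the count table. Implied read pairs were the median depth times exonic length over the bases of a read pair. Rates were compared within each mouse at a depth of at least 5, with a depth of 10 or 20 and Fisher's exact test as alternatives. Named genes were all 10 members, called genes of the 3 lists with the 2 best-counted uncalled ones of each, and the 5 genes nearest Zbp1. Named sites were, as none changed in both mice or passed the test, the 3 passing sites of highest depth in any library. The Mlkl site at 111321989 was added because its rate was higher in CON. GENCODE vM21 matched 23376 of 24421 genes, and 24.1% of these overlap an opposite-strand exon and hold 68.6% to 73.9% of counts. Work on sites used Python 3.11.15, pandas 2.3.3 and scipy 1.17.1. The tests were checked on simulated data. Intervals and floors cover counting error only.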

Additional observations from a re-analysis of the deposited data

How the results depend on the processing

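Of the 46 values of single genes under other settings of the counts, 42 kept their direction and their side of the threshold, none reversed, and 4 fell short of it, all of Xaf1 (DESeq2 and the libraries named beside it). Zbp1 passed in all 9 alternatives that gave it an adjusted p (1.14e-08 to 0.018). With the mouse as a replicate block, edgeR called 1184 genes in place of 612, with the pair Zbp1 and Xaf1 kept (Xaf1 adjusted p = 0.00408, Mlkl 0.0626), and DESeq2 called 399. DESeq2 called 363 without the block. Of the members, DESeq2 called 1, Zbp1, and with the block 0, as it gave Zbp1, Xaf1 and Mlkl no adjusted p, while 963 genes of the table had an unadjusted p under 0.05. The blocked DESeq2 fit called 1 of the other cell-death genes in place of 2. With each library left out in turn, 1 to 2 members, 1 to 2 other cell-death genes and 436 to 574 genes in all were called, the lone library of a group being assumed to vary like the others.

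By depth, 1 member was at least 2 times as high with introns and other regions included, 5 by the median of listed sites, 2 by that median with at least 3 sites, and 1 to 2 in a single mouse, in place of 0 by shared exonic sites. Member sites higher in CON numbered 1 at a depth of 10, 1 at 20 and 0 by the adjusted Fisher test, in place of 2, and 1 in either mouse alone. Sites higher in TM numbered 1 when listed in both libraries and 0 by the Fisher test, in place of 9, and 4 to 5 in either mouse alone. The number of CON reads sets these limits, and 2 mice allow no test of depth or rates between animals.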
